A study of Rattus norvegicus with 40 samples.

Results

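The dorsal root ganglion (DRG) of the fourth lumbar segment (L4), which neighbours the ligated L5 segment, was compared between the ligated side and the other side of rats with spinal nerve ligation (SNL). Its members are the 10 arrays, of 40 in the series, whose labels give the procedure SNL and the tissue L4 DRG, 5 of the ipsilateral and 5 of the contralateral side. All were male Sprague-Dawley rats, and the tissue was taken 4 weeks after ligation of the L5 spinal nerve. The same 5 rats, numbered 4, 8, 9, 18 and 48 in the labels, gave both sides. Further sets of 10 arrays served for differences only, namely the L4 DRGs of 5 sham rats, operated on without a ligature and also sampled at 4 weeks, and the L5 DRGs of the same SNL rats. Each array (Affymetrix Rat230_2) held the RNA of 1 DRG, and its values are linear signals of the MAS 5 algorithm, an arbitrary brightness scale. The labels give neither the age of the rats nor the batch of the RNA. The ipsilateral arrays are numbered 1 to 5 and the contralateral arrays 6 to 10 in the labels, so array order and side cannot be told apart.

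A DRG holds the cell bodies of sensory neurons, each wrapped by satellite glial cells, together with Schwann cells, fibroblasts, vessels and resident macrophages. Small-diameter nociceptors detect heat, acid, ATP and noxious pressure, and large-diameter neurons carry touch and position sense. Ligation of the L5 spinal nerve cuts off the L5 neurons from their targets, while the L4 spinal nerve is left intact and its axons run in the sciatic nerve among degenerating L5 axons. The question of the comparison is what changed in the ganglion whose own nerve was spared. In a whole DRG, fewer cells of a type and less RNA per cell cannot be told apart.

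The probesets that report on RNA integrity were not alike on the 2 sides. GAPDH is read at both ends of its mRNA, and the 3′ signal over the 5′ signal grows where RNA is broken or copied incompletely. On the log2 scale this ratio was 2.4, 2.38, 2.47, 2.33 and 2.15 on the ipsilateral arrays of rats 4, 8, 9, 18 and 48, and 1.32 to 1.46 on the contralateral arrays. The difference of 0.95 had an exact two-sided permutation p = 0.00794, the smallest that 5 arrays against 5 allow. In sham L4 the same ratio differed by 0.43. The actin ratio was 4.79 ± 0.444 against 4.02 ± 0.183 (SD, n = 5, exact permutation p = 0.0159), and the median signal was 54.4 ± 1.2 against 49.4 ± 0.772 (exact permutation p = 0.00794). Bacterial control probesets had a mean log2 signal of 11.57 ± 0.161 against 11.06 ± 0.187 (SD, n = 5, exact permutation p = 0.00794). Their side difference was 0.51 in SNL L4 and 1.14 in sham L4. The ipsilateral arrays also varied more among themselves, with a median SD over probesets of 0.25 on the log2 scale against 0.19, and correlated with each other at 0.942 to 0.956 against 0.970 to 0.973. No single array stood out from its group, with distances from the mean of the other 4 of 0.33 to 0.38 on the ipsilateral side. The part of RNA integrity in the differences below was not tested. DRG markers were bright on both sides, among them the neurofilament gene Nefl (6099.8 ± 225 contralateral, 7295 ± 491 ipsilateral) and the calcitonin gene-related peptide gene Calca (3640.3 ± 172 and 4969.6 ± 452, SD, n = 5).

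**Figure D1:**
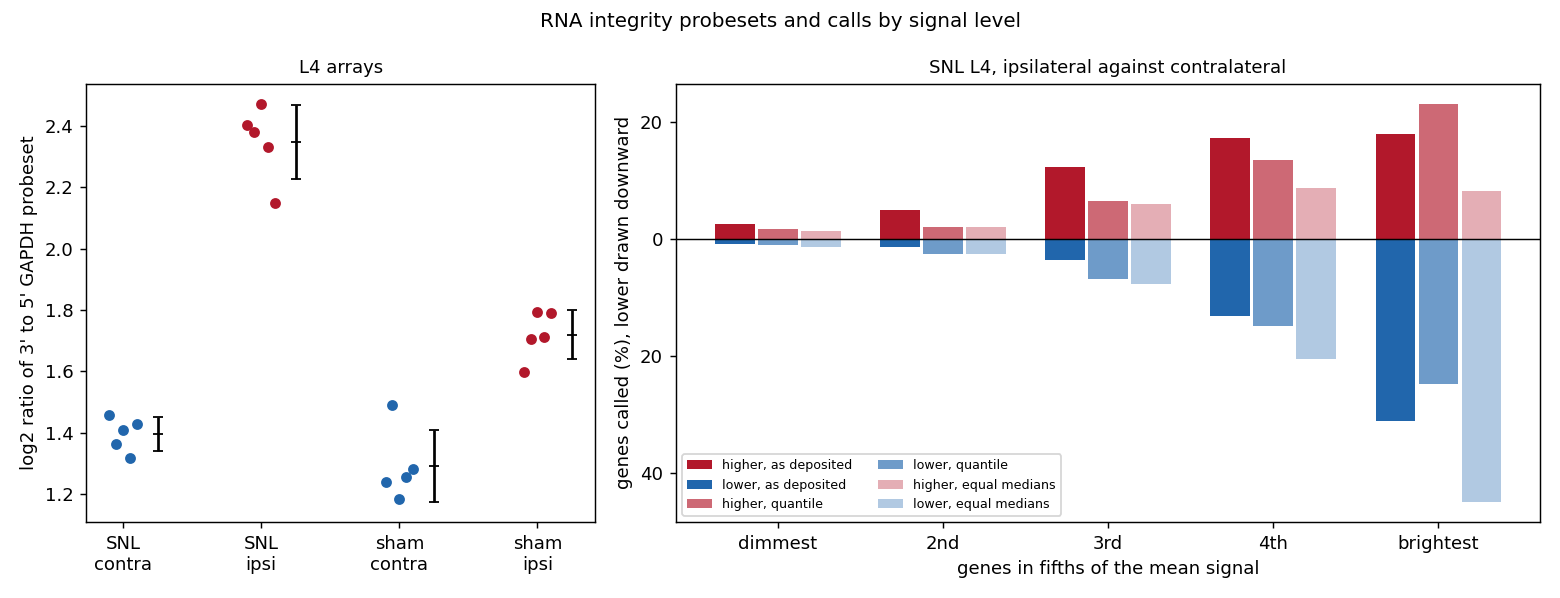
Left, the GAPDH 3′ over 5′ signal (log2) on each L4 array (points) with the mean and SD of 5 arrays, which is 2.15 to 2.47 in ipsilateral SNL L4 and lower in the other 3 groups. Right, the percent of genes called higher (up) or lower (down) on the ipsilateral side in each quintile of genes by mean signal, under 3 scalings, with falls reaching 31.2% in the brightest quintile as deposited.

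Across all genes the sides differed widely but mostly by modest amounts. Of 31042 probesets, 19.1% were called, 3140 higher on the ipsilateral side (10.1%) and 2798 lower (9.01%), at a limma adjusted p under 0.05 on log2(signal + 16). Among 14217 named genes, each read from its brightest probeset, 1568 were higher (11%) and 1426 lower (10%). The sides did not overlap in 2314 genes (16.3%). A difference over 1 on the log2 scale was found in 30 of the genes called higher and 39 of those called lower, and the median called gene rose by 0.48 or fell by 0.45. The median of all genes was 0.07. For each gene list below, the count called is to be set beside the all-gene shares of 11% higher and 10% lower.

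As deposited, the direction of calls went with the brightness of the gene. In the dimmest quintile 2.53% of genes were higher and 0.809% lower, whereas in the brightest quintile 18% were higher and 31.2% lower. After quantile normalization the directions were closer to even in each quintile, with 1.65% and 1.13% in the dimmest and 23.1% and 24.8% in the brightest, and under equal medians the brightest had 8.19% and 45.04%. The split between directions also moved with the scaling, since 52.9% of called probesets were higher as deposited, 46% with quantiles equalised between arrays (quantile normalization) and 27.5% with equal medians. Probesets of the same gene often parted. Of 566 genes called higher that have further probesets, another probeset was also higher in 67 and was lower in 53. Of 721 genes called lower, another was lower in 197 and higher in 56. Calls of both directions that were above the median signal, had no overlap of the sides and held under both scalings and without any 1 array numbered 582 for rises and 909 for falls, and the genes with the largest changes below come from these.

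**Figure D2:**
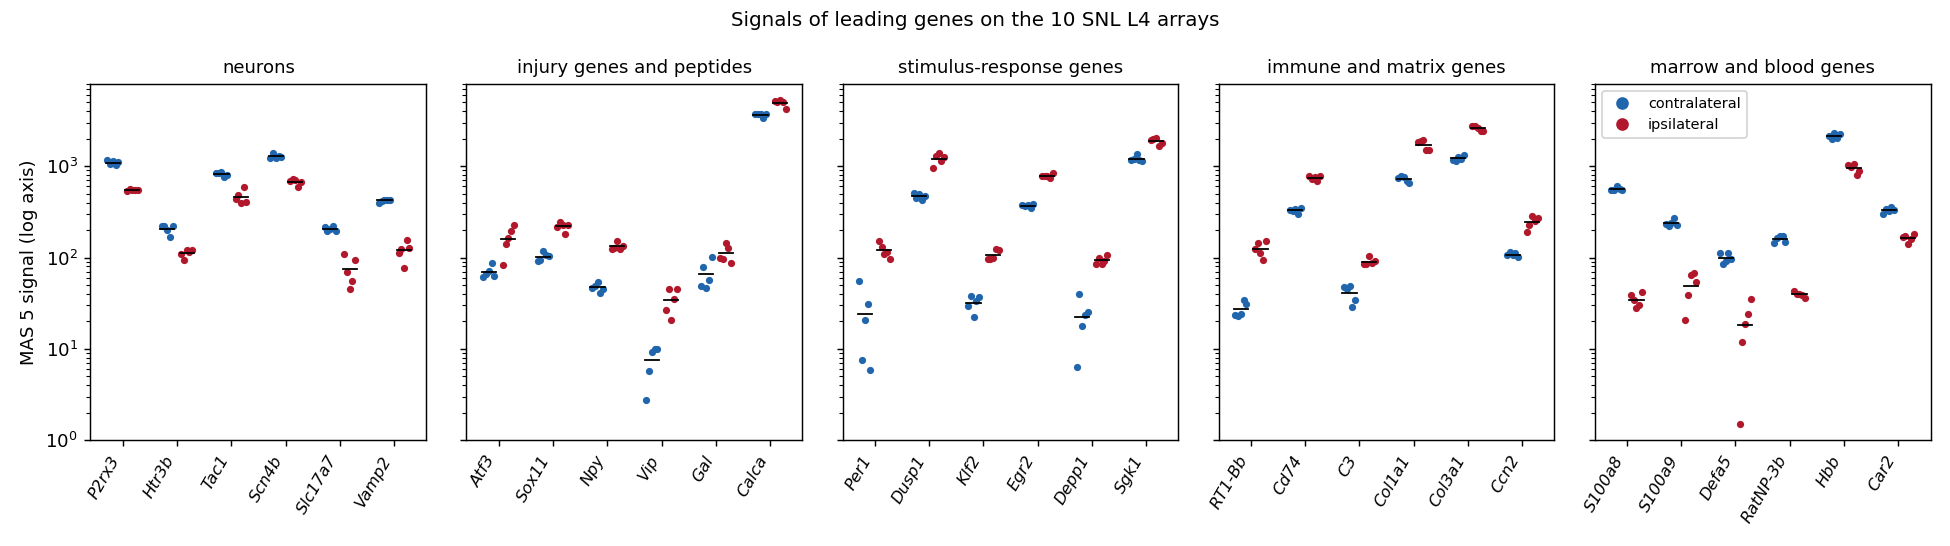
MAS 5 signals (log axis) of 30 genes on the 5 contralateral and 5 ipsilateral SNL L4 arrays, in 5 groups. Points are arrays and black lines are means. S100a8 has contralateral signals of 548 to 605 and ipsilateral signals of 28.05 to 42.2, and the sides also lie apart for P2rx3, Per1, Cd74 and Col3a1.

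Several genes of non-peptidergic nociceptors, small neurons that sense ATP and noxious pressure, fell on the ipsilateral side. On this list, none of 16 measured genes was higher, 7 were lower and 9 were not called. The median log2 fold change was -0.29 against 0.07 for all genes (-0.27 and -0.37 under the other scalings). The falls were 43.75%, against 31.2% of the brightest quintile of genes as deposited. Under equal medians 8 of the 16 were lower, against 45.04% of that quintile. P2rx3, the ATP-gated channel of these neurons, had signals of 539, 567, 550.5, 543 and 543 on the ipsilateral arrays of rats 4, 8, 9, 18 and 48 and of 1157, 1071, 1132, 1019 and 1107 on their contralateral arrays. Every ipsilateral array lay near 1 level, far below every contralateral array (log2 fold change -0.98, standard error 0.05, limma adjusted p = 1.09e-09, no overlap). A dimmer P2rx3 probeset had 0.08 and was not called. The subunits of the serotonin-gated cation channel fell as well. Htr3b had 109, 94.9, 121, 114 and 122 against 221, 219, 199, 167 and 220.1 in the same order of rats (log2 fold change -0.78, standard error 0.10, limma adjusted p = 1.42e-05, no overlap), and Htr3a fell from 77.7 ± 4.03 to 37.5 ± 12.5 (SD, n = 5). Ret, the GDNF family co-receptor, fell from 1359 ± 63.5 to 957 ± 36.8 (SD, n = 5), and its further probesets fell by 0.78 and 0.64. Plxnc1, a semaphorin receptor, had a log2 fold change of -0.61, while its dimmer probeset was not called (0.03). Scn11a, the sodium channel Nav1.9 of the same neurons, was not called (835 ± 38.7 and 817 ± 50.1, SD, n = 5).

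Peptidergic nociceptor genes went both ways. On this list, 4 of 8 measured genes were higher and 2 were lower (median 0.35). Tac1, which encodes substance P, had 439.5, 482, 399, 596 and 405 on the ipsilateral and 837, 839, 863, 764 and 810 on the contralateral arrays of rats 4, 8, 9, 18 and 48. The ipsilateral arrays were all lower, with rat 18 the highest of them (log2 fold change -0.82, standard error 0.09, limma adjusted p = 3.37e-06, no overlap). Calcb fell from 842 ± 71.99 to 609.5 ± 50.5 (SD, n = 5). Calca rose at its brightest probeset, with 5169, 5081, 5330.1, 5086 and 4182 against 3709, 3750, 3687, 3335 and 3721 (log2 fold change 0.44, standard error 0.06, limma adjusted p = 8.68e-05, no overlap), while its next probeset fell by 0.76 (limma adjusted p = 7.82e-08). The 2 probesets of Calca therefore give opposite directions. Adcyap1, the gene of the peptide PACAP, rose from 132 ± 15.3 to 192 ± 22.03 (SD, n = 5), and Oprm1, the mu opioid receptor, rose from 19.9 ± 13.5 to 50.03 ± 9.24 (SD, n = 5) with overlapping sides.

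Large-diameter neuron genes fell more often than they rose (3 of 20 measured genes were higher and 8 were lower, median -0.10, with 0 higher and 9 lower under equal medians). As deposited these were 15% and 40%, against 11% and 10% of all genes and 18% and 31.2% of the brightest quintile. Under equal medians 45.04% of the brightest quintile was lower. Slc17a7, the vesicular glutamate transporter of these neurons, had 109, 68.97, 44.9, 55.4 and 94.5 on the ipsilateral and 215, 196, 206, 224 and 196 on the contralateral arrays in the order of rats above. The sides lay far apart (log2 fold change -1.35, standard error 0.16, limma adjusted p = 7.08e-06, no overlap), while its dimmer probeset rose by 0.56 from a signal of 22.3. Cntnap2 and Kcna1, which sit together beside the node of Ranvier, fell by 0.54 and 0.46, and a further Cntnap2 probeset fell by 0.68. The calcium sensor Vsnl1 fell from 808 ± 31.8 to 577 ± 58.2 (SD, n = 5), and Spp1, the matrix protein osteopontin, fell from 1215 ± 62.2 to 784 ± 92.02 (SD, n = 5).

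Of 11 sodium channel genes, 4 fell (36.4%, all genes 10%) and none rose (all genes 11%). Of the brightest quintile of genes, 31.2% were lower as deposited and 45.04% under equal medians, where the list had 0 higher and 4 lower. After quantile normalization the list had 1 higher and 3 lower. Scn4b, a subunit that speeds recovery of the channel, had 684, 727, 705, 588 and 669.8 against 1217, 1404, 1217, 1301 and 1267 (log2 fold change -0.91, standard error 0.06, limma adjusted p = 2.78e-08, no overlap). The ipsilateral level was near the same in 4 rats and lowest in rat 18. The pore-forming genes moved less, with log2 fold changes of -0.31 for Scn9a (Nav1.7) and -0.21 for Scn1a, whose call was lost after quantile normalization (-0.10), and the subunit gene Scn2b had -0.33. The list median was 0.06. The count of potassium channel genes turned with the scaling (7 of 41 measured genes were higher and 6 were lower as deposited, 4 higher and 8 lower after quantile normalization and 0 higher and 10 lower under equal medians). Kcnip4, which binds A-type channels, fell from 463 ± 45.4 to 259.6 ± 26.7 (SD, n = 5), and Kcnab1, a cytoplasmic subunit, fell from 605 ± 29.7 to 401 ± 66.96 (SD, n = 5). Among calcium channel subunits, Cacna2d3 fell by 0.44 and Cacnb3 rose by 0.47. Of 26 inhibitory receptor genes, 2 rose and 5 fell (7.69% and 19.2%, all genes 11% and 10%). Gabra2, a GABA-A receptor subunit, fell from 460.1 ± 23.3 to 269.6 ± 25.1 (SD, n = 5) and Glrb, the glycine receptor beta subunit, fell from 837 ± 77.1 to 589 ± 56.2 (SD, n = 5), whereas the somatostatin receptor gene Sstr2 rose from 75.5 ± 13.2 to 140.5 ± 19.3 (SD, n = 5).

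Synaptic release genes held some of the largest falls of the ganglion (5 of 33 measured genes were higher and 8 were lower, median -0.01, with 1 higher and 13 lower under equal medians). Vamp2, the vesicle SNARE protein synaptobrevin, had 113, 123, 77.6, 155 and 128 on the ipsilateral and 399, 417, 431, 428 and 431 on the contralateral arrays in the order of rats 4, 8, 9, 18 and 48. The groups lay well apart (log2 fold change -1.72, standard error 0.12, limma adjusted p = 2.28e-08, no overlap), and its dimmer probeset was not called (0.26). Syt11, a synaptotagmin with a mean signal below the median, fell from 47.6 ± 16.4 to 10.4 ± 5.63 (SD, n = 5). Napb, which helps take SNARE complexes apart, fell from 458 ± 46.5 to 253 ± 30.2 (SD, n = 5). Sv2b, a vesicle membrane protein, rose from 2094 ± 109 to 2724 ± 154 (SD, n = 5) at its brightest probeset and fell by 0.58 at the next (limma adjusted p = 0.000502).

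Neuronal identity and cytoskeleton did not move together. Drgx, a transcription factor of nociceptors, fell from 285 ± 16.4 to 169 ± 10.3 (SD, n = 5), and the neuronal RNA-binding proteins Rbfox3 and Elavl4 had log2 fold changes of -0.47 and -0.45. Of 18 pan-neuronal genes, 4 rose and 6 fell. On the cytoskeleton list, 11 of 34 measured genes were higher and 4 were lower, with the counts near each other under equal medians (7 higher, 9 lower). Tubb2b, a tubulin of growing neurons, had 2033, 2131, 2422, 2191 and 2112 against 1384, 1411, 1369, 1346 and 1351 (log2 fold change 0.66, standard error 0.05, limma adjusted p = 1.53e-07, no overlap). Prph, the intermediate filament of small neurons, rose from 1587 ± 146 to 2302 ± 137 (SD, n = 5). Every ipsilateral array was the higher for both. The neurofilament genes rose by 0.38 (Nefh), 0.36 (Nefm) and 0.26 (Nefl), but the call of Nefm was lost after quantile normalization (0.05, limma adjusted p = 0.509) and that of Nefh under equal medians (limma adjusted p = 0.0683). Nefl turned to -0.32 after quantile normalization and its other probeset fell by 0.52. Map7, which binds microtubules, fell from 395 ± 20.2 to 171 ± 20.1 (SD, n = 5), and Ank3, which anchors sodium channels, fell from 555 ± 48.7 to 323 ± 33.3 (SD, n = 5), although neither further Ank3 probeset was called.

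A minority of genes known from injured sensory neurons rose. On the regeneration list, 13 of 41 measured genes were higher and 2 were lower, and the other 26 were not called. The median was 0.28, against 0.19 in sham L4, and 5 members were more positive than in sham by the interaction test. Atf3, a transcription factor induced by axotomy, had 83.3, 139.7, 162, 197 and 226 on the ipsilateral arrays of rats 4, 8, 9, 18 and 48 and 60.7, 65.2, 71.03, 87.5 and 62.7 on the contralateral arrays. Rat 4 was low among the ipsilateral arrays, below the highest contralateral array, and the other 4 were above all contralateral arrays (log2 fold change 1.0, standard error 0.18, limma adjusted p = 0.000726, sides overlapping). Sox11, a growth transcription factor, had 215, 246, 227, 180.4 and 225 against 92.02, 93.4, 117, 106 and 105 with no overlap (log2 fold change 0.98, standard error 0.10, limma adjusted p = 1.06e-06, no overlap). Hspb1, a small heat shock protein of regrowing axons, rose from 567 ± 19.97 to 852 ± 53.4 (SD, n = 5) and Stmn4, a tubulin regulator, rose from 145 ± 14.9 to 222 ± 20.2 (SD, n = 5). Klf7 fell from 231 ± 15.3 to 130.5 ± 24.2 (SD, n = 5), and by 1.17 at its next probeset, while the others were not called. Gap43 (1329 ± 55.4 and 1455 ± 37.8) and Sprr1a (10.8 ± 3.02 and 17.8 ± 10.5, SD, n = 5), both growth-associated genes, were not called.

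Among neuropeptides, 6 of 27 measured genes were higher and 3 were lower (22.2% and 11.1%, all genes 11% and 10%, median -0.05). Npy, neuropeptide Y, had 123, 127, 153, 125 and 132 on the ipsilateral and 46.6, 48.4, 54.4, 40.7 and 44.9 on the contralateral arrays, apart in every rat (log2 fold change 1.23, standard error 0.11, limma adjusted p = 4.47e-07, no overlap). Vip rose from a low level, with 26.4, 45.2, 20.9, 34.7 and 45.6 against 2.78, 5.69, 9.19, 9.91 and 9.94 (log2 fold change 1.09, standard error 0.19, limma adjusted p = 0.000455, no overlap). Vgf, a secreted nerve growth factor-responsive precursor, rose from 48.1 ± 11.5 to 105 ± 13.2 (SD, n = 5). Gal, galanin, had 98.8, 96.6, 145, 127 and 88.1 against 48.5, 79.2, 46.7, 56.2 and 102, so that the sides overlapped (log2 fold change 0.65, standard error 0.17, limma adjusted p = 0.0132, sides overlapping). Of 38 neurotrophic factor and receptor genes, 4 rose and 8 fell (10.5% and 21.1%, all genes 11% and 10%). Igfbp6, an IGF-binding protein, rose from 329 ± 47.9 to 633 ± 83.6 (SD, n = 5) at the brightest probeset and by 0.91 at the other. Fgf1 fell by 0.38, and by 0.90 and 0.61 at its further probesets.

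Stimulus-response genes were among the largest rises. Of 41 immediate early genes, 17 were higher and 1 lower (median 0.32, and 0.25 and 0.22 under the other scalings). Per1, a clock gene that hormones and neuronal activity induce, had 152, 129.6, 109.9, 116 and 96.3 on the ipsilateral and 54.7, 7.54, 20.6, 31.3 and 5.80 on the contralateral arrays in the order of rats 4, 8, 9, 18 and 48. The contralateral arrays spread over a wide range at low signal, and none reached the lowest ipsilateral array (log2 fold change 1.90, standard error 0.26, limma adjusted p = 3.67e-05, no overlap). Dusp1, a MAP kinase phosphatase, had 957, 1281, 1406, 1154 and 1261 against 512, 451, 502, 428 and 472 (log2 fold change 1.32, standard error 0.09, limma adjusted p = 1.07e-08, no overlap). Its other probeset, near background at 11.5, was not called. Klf2, a transcription factor of vessels and T cells, had 95.2, 95.7, 97.9, 123 and 119 against 29.3, 38.4, 22.1, 33.02 and 37.2, and 1 of its 4 further probesets also rose (log2 fold change 0.88). Egr2, which drives myelin genes in Schwann cells, had 782, 775, 774, 739 and 844 against 374, 369.9, 377, 348 and 383 (log2 fold change 1.05, standard error 0.06, limma adjusted p = 1.09e-09, no overlap). In all 4 of these genes the ipsilateral arrays were the higher without overlap. Zfp36, which destabilises inflammatory mRNAs, rose from 72.9 ± 10.2 to 144 ± 15.3 (SD, n = 5).

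Genes that respond to glucocorticoids and FoxO factors rose more often than they fell (11 of 39 measured genes were higher and 7 were lower, median 0.11), nearly even under equal medians (10 higher and 9 lower), a list that shares Per1, Dusp1 and Klf2 with the previous one. Depp1, a FoxO target outside the list, had 85, 98.6, 85.1, 91.8 and 105 against 6.26, 39.7, 17.6, 23.3 and 25 (log2 fold change 1.57, standard error 0.20, limma adjusted p = 1.79e-05, no overlap). Sgk1, a kinase induced by glucocorticoids, rose from 1201 ± 83.8 to 1892 ± 154 (SD, n = 5), and Klf15 rose from 81.9 ± 7.46 to 162 ± 26.4 (SD, n = 5). Among 21 clock genes, 5 rose and 2 fell (5 higher and 4 lower under equal medians). Per3 rose from 101 ± 12.1 to 172 ± 28.7 (SD, n = 5), Hlf rose from 203 ± 12.01 to 369 ± 36.9 (SD, n = 5) and Nfil3 rose from 30.8 ± 5.75 to 58.8 ± 12.7 (SD, n = 5).

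The promoters of the risen members of these 3 lists were searched in RefSeq sequence (GRCr8) for the cAMP response element TGACGTCA, a motif that CREB binds. Promoter sequence was at hand for 23 of 29 risen members, and 3 of them held the motif on either strand in the 250 bases before the start site, namely Dusp1, Ier2 and Jund. Of measured genes with a promoter, 2.71% held it. The shorter TGACGT, which overlaps it, was found in 11 of 23 and in 9.98% of measured genes. The E-box CACGTG, bound by clock factors, was in 5 (8.05%), the AP-1 motif TGANTCA in 1 (4.92%) and the FoxO motif GTAAACA in none (2.21%). A match is a description of the letters and no evidence of binding. Members of the lists that did not rise were not searched, so these shares do not bear on the rise. The matching windows are shown because their genes rose together, with the motif in capitals. Dusp1 (chr10:17184719-17184746, plus strand, motif starting 124 bases before the start site), Ier2 (chr19:40399297-40399324, plus strand, motif starting 66 bases before the start site) and Jund (chr16:18769975-18770002, minus strand, motif starting 221 bases before the start site) read, 5′ to 3′:
Dusp1: gcagggcgggTGACGTCAccacccggtc
Ier2: ggcgtttcagTGACGTCActcttactct
Jund: cccacccccaTGACGTCAacccacaatg
Of the 3, Dusp1 had the largest rise, and Jund, a member of the AP-1 family, rose from 994 ± 74.7 to 1298 ± 104 (SD, n = 5).

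Glial and lipid genes were divided. On the peripheral myelin list, 5 of 24 measured genes were higher and 9 were lower (median -0.17). Ugt8, the enzyme that makes the myelin lipid galactosylceramide, had 129, 138, 128, 141 and 180 on the ipsilateral and 404, 464, 415, 447 and 376 on the contralateral arrays, far apart (log2 fold change -1.46, standard error 0.09, limma adjusted p = 6.49e-09, no overlap). Cnp, a myelin enzyme, fell from 457 ± 17.7 to 282 ± 30.2 (SD, n = 5) and by 1.39 at its other probeset. The brightest probeset of Mbp, myelin basic protein, was not called (2715 ± 302 and 2413 ± 132, SD, n = 5), while another fell by 1.61 (limma adjusted p = 4.67e-06). Pmp22 rose from 5912 ± 613 to 8742 ± 1034 (SD, n = 5), a rise that was lost after quantile normalization and was not seen at its other probeset (-0.13). Satellite glial genes were balanced (3 of 21 measured genes were higher and 3 were lower). Vim, the intermediate filament vimentin, rose from 3618 ± 292 to 5059.8 ± 449 (SD, n = 5) and Timp3, a protease inhibitor, fell from 1195 ± 99.4 to 842 ± 90.6 (SD, n = 5). On the cholesterol and fatty acid list, 7 of 36 measured genes were higher and 9 were lower (3 higher and 12 lower under equal medians). Srebf2, the transcription factor of cholesterol synthesis, fell from 460.3 ± 26.5 to 209 ± 15.9 (SD, n = 5), its target Msmo1 fell from 372 ± 31.8 to 246 ± 18.7 (SD, n = 5), and the elongase Elovl6 fell from 254 ± 13.01 to 133 ± 8.46 (SD, n = 5), with its other probeset not called (0.02). Scd2, a desaturase, rose by 0.27 at its brightest probeset and fell by 1.32 and 1.34 at the next ones.

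Genes of antigen presentation rose in a small set of members. On this list, 6 of 20 measured genes were higher and 1 was lower (median 0.28). Cd74, the chaperone that guides class II molecules (invariant chain), had 789, 725, 767, 687 and 791 against 333, 321, 344, 299 and 346 (log2 fold change 1.15, standard error 0.06, limma adjusted p = 1.1e-09, no overlap). RT1-Bb, a class II beta chain, had 124, 142, 112, 94.95 and 151 against 23.5, 22.9, 24.01, 34.6 and 30.6 (log2 fold change 1.7, standard error 0.14, limma adjusted p = 2.43e-07, no overlap), and its other probeset was not called (-0.09). RT1-Da and RT1-Db1, chains of another class II molecule, rose from 156 ± 17.1 to 288 ± 39.5 (SD, n = 5) and from 127 ± 24.2 to 204 ± 12.04 (SD, n = 5). For these class II genes no ipsilateral array reached down to the contralateral level. B2m, the light chain of MHC class I, fell from 2646 ± 149 to 1968 ± 115 (SD, n = 5) and by 0.39 at its other probeset. Class II genes are close copies of each other, and a probeset may read more than 1 of them.

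Few macrophage genes were called. Of 31, 5 rose (all genes, 11%) and none fell (median 0.15), but 2 higher and 2 lower under equal medians, with a summed signal of 2433 to 2744 on the ipsilateral and 2281 to 2490 on the contralateral arrays. Adgre1 (F4/80) rose from 66.9 ± 6.77 to 102 ± 8.36 (SD, n = 5) and Csf1r, the receptor for macrophage colony-stimulating factor, rose from 45.1 ± 4.52 to 77.5 ± 14.6 (SD, n = 5). Lyz2, a bright lysozyme gene, was not called (650.3 ± 48.2 and 595 ± 32.3, SD, n = 5). On the complement list, 7 of 21 measured genes were higher and 2 were lower (3 higher and 2 lower under equal medians). C3, the central component, had 85.9, 84, 103, 88.2 and 91.6 against 47.8, 45.3, 48.4, 28.8 and 34.3 (log2 fold change 0.91, standard error 0.14, limma adjusted p = 0.00011, no overlap), and C5ar1, the C5a receptor, rose from 83.8 ± 9.31 to 143 ± 28.4 (SD, n = 5). C1qa and C1qb, which start the classical pathway, rose by 0.56 and 0.60. Both calls were lost under both other scalings, that of C1qa also without the ipsilateral array of rat 18 or the contralateral array of rat 8, and that of C1qb without any 1 of 5 arrays, these included. Cd59b, which blocks the membrane attack complex, fell from 2181 ± 147 to 1419 ± 79.2 (SD, n = 5). Other immune lists had few calls. Of 38 cytokine and chemokine genes 1 rose and 2 fell, of 34 interferon-stimulated genes 3 and 2, of 20 lymphocyte genes 1 and 1, and of 10 mast cell genes none was called. Over all genes 11% rose and 10% fell.

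Matrix genes formed the list with the most rises in number. On the fibroblast and matrix list, 24 of 48 measured genes were higher and 1 was lower, with a median of 0.30 (0.29 and 0.17 under the other scalings). Col3a1, a fibrillar collagen, had 2729.6, 2768, 2642, 2457 and 2425 against 1167, 1149, 1252, 1201 and 1316 (log2 fold change 1.09, standard error 0.06, limma adjusted p = 8.43e-10, no overlap). Col1a1 had 1822, 1874, 1918, 1514 and 1493 against 741, 786, 758, 696 and 660 (log2 fold change 1.22, standard error 0.08, limma adjusted p = 7.33e-09, no overlap) and rose by 0.66 at its other probeset. Ccn2, a growth factor of connective tissue, had 191, 225, 287, 248 and 273 against 106, 114, 106, 111 and 102 (log2 fold change 1.06, standard error 0.10, limma adjusted p = 7.11e-07, no overlap). In all 3 the sides lay apart, with the ipsilateral level clearly the higher. Col6a1 rose from 123 ± 8.08 to 231 ± 19.9 (SD, n = 5), Col8a1 rose from 72.5 ± 12.2 to 162 ± 36.96 (SD, n = 5), and the fibroblast receptor Pdgfra rose from 301 ± 32.8 to 405 ± 20.9 (SD, n = 5). Pdgfrb, of pericytes and fibroblasts, rose from 149 ± 26.2 to 313 ± 39.7 (SD, n = 5) and at both further probesets (0.77 and 0.72), while of 31 vessel genes 3 rose and 1 fell (1 higher and 3 lower under equal medians). Of 31 protease and inhibitor genes, 6 rose and 2 fell (3 higher and 3 lower under equal medians). Mmp2, which cleaves collagen, rose from 106 ± 13.8 to 157 ± 30.6 (SD, n = 5) and Adamts1 rose from 97.2 ± 16.4 to 158 ± 12.9 (SD, n = 5).

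The largest fall of any gene was that of S100a8, on the list of genes of neutrophils and bone marrow. On this list, 1 of 16 measured genes was higher and 8 were lower (median -0.36), with a summed signal of 823 to 950.2 on the ipsilateral and 1827 to 2019 on the contralateral arrays. S100a8, a subunit of the neutrophil protein calprotectin, had 38.9, 34.2, 28.05, 30.1 and 42.2 on the ipsilateral and 548, 549, 605, 557 and 556 on the contralateral arrays of rats 4, 8, 9, 18 and 48 (log2 fold change -3.52, standard error 0.09, limma adjusted p = 6.15e-14, no overlap). Its partner S100a9 had 20.8, 38.4, 64.7, 67.2 and 54.4 against 231, 221, 241, 270.4 and 228 (log2 fold change -2.02, standard error 0.17, limma adjusted p = 2.99e-07, no overlap). The neutrophil defensins fell too. RatNP-3b had 43.4, 39.6, 39.97, 39.02 and 36.4 against 144, 165, 171, 171 and 147, Defa5 had 1.496, 11.9, 18.8, 24.3 and 34.96 against 112, 84.7, 91.6, 113 and 95.9, and Np4 fell from 171 ± 23.96 to 79.5 ± 7.30 (SD, n = 5). In none of these 5 genes did an ipsilateral array reach the contralateral range. Hbb, beta globin of red blood cells, had 1029, 971, 1057, 800.2 and 884 against 2155, 1962, 2288, 2058 and 2238 (log2 fold change -1.17, standard error 0.07, limma adjusted p = 6.91e-09, no overlap), and Car2, a carbonic anhydrase also found in sensory neurons, fell from 330.2 ± 22.5 to 163 ± 14.9 (SD, n = 5) and by 0.99 at its other probeset. Of 10 red blood cell genes these were the only 2 called. Mki67, on the marrow list as a gene of dividing cells, rose from 319 ± 31.5 to 401 ± 16.2 (SD, n = 5), a call lost under equal medians (0.19, limma adjusted p = 0.101).

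Markers of tissue that a dissection may carry along were also read. Of 25 skeletal muscle genes, 2 rose and 1 fell, with a summed signal of 3909 to 4374 on the ipsilateral and 2832 to 2971 on the contralateral arrays. Myh1, a myosin heavy chain, had 3332, 3360.4, 3289, 3125 and 3138 against 2005, 1928, 2087, 1947 and 1947 (log2 fold change 0.71, standard error 0.05, limma adjusted p = 2.28e-08, no overlap), and its 4 further probesets had 0.49, 0.16, 0.15 and 0.24, of which the first and the last were called. Tpm1, a tropomyosin of many tissues, fell from 392 ± 18.7 to 248 ± 36.8 (SD, n = 5) at its brightest probeset and by 0.43 at another, while the other 5 were not called. Of 15 adipose genes 4 rose, and none under either other scaling, and of 16 genes of central glia 1 rose. The part of these tissues in the other differences was not tested.

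**Figure D3:**
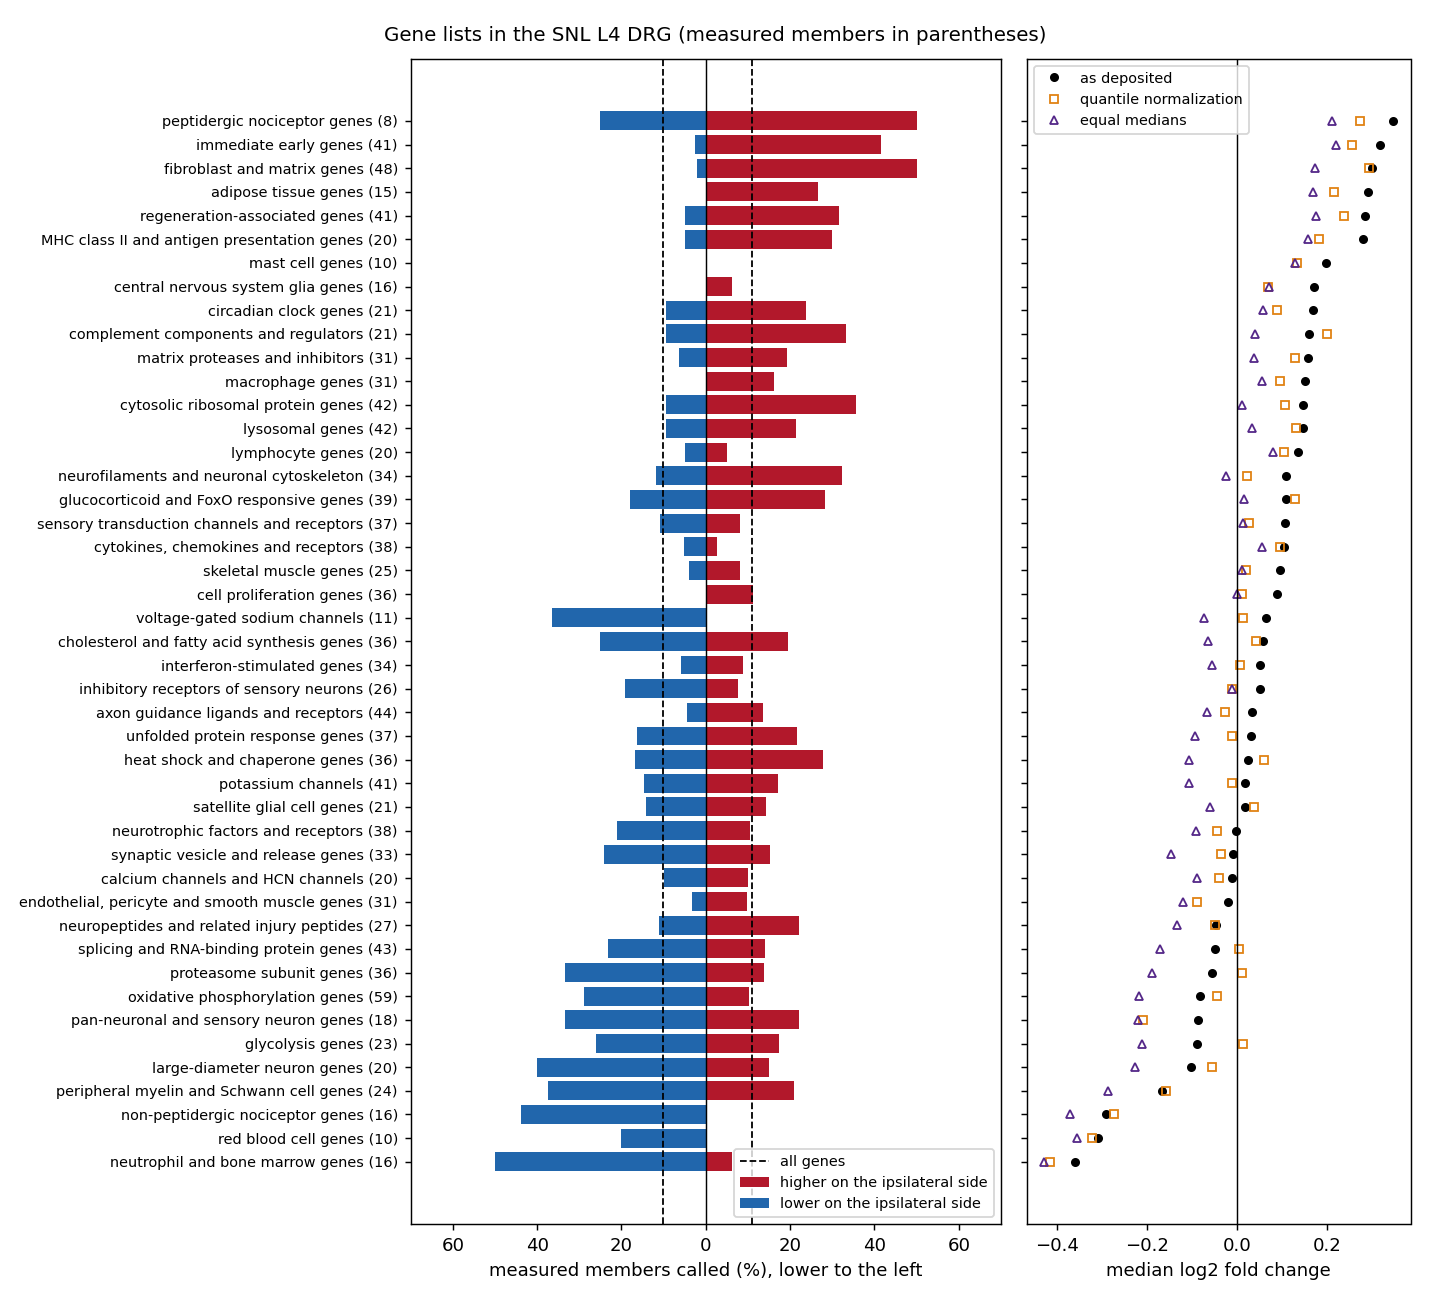
Left, the percent of measured members of each of 45 gene lists called higher (right) or lower (left) on the ipsilateral side of SNL L4, with dashed lines for all 14217 genes (11% and 10%). Right, the median log2 fold change of each list as deposited and under the other scalings. Matrix genes have 24 of 48 members higher, and marrow genes 8 of 16 lower.

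Among genes of basic cell processes, subunits of 1 machine parted. On the proteasome list, 5 of 36 measured genes were higher and 12 were lower (median -0.06), with 9 higher and 10 lower after quantile normalization and 1 higher and 15 lower under equal medians. As deposited these were 13.9% and 33.3%, against 18% and 31.2% of the brightest quintile of genes. Psma2, a core subunit, had 615, 759.6, 705, 592 and 601 against 1099, 1151, 1249, 1166 and 1184 (log2 fold change -0.83, standard error 0.07, limma adjusted p = 2.16e-07, no overlap), and Psmb7, Psmb4 and Psma1 fell by 0.66, 0.59 and 0.66. Psmd3, of the cap, rose from 129 ± 34.6 to 211 ± 27.2 (SD, n = 5). Of 59 oxidative phosphorylation genes, 6 rose and 17 fell (median -0.08), with 12 higher and 13 lower after quantile normalization and 3 higher and 29 lower under equal medians (median -0.22). The rises were 10.2% and the falls 28.8%, the latter near the 31.2% of the brightest quintile. Ndufb10 of complex I and Cox7c of complex IV fell by 0.57 and 0.50, and Uqcrc1 of complex III rose by 0.53. Ribosomal protein genes rose more often (15 of 42 measured genes were higher and 4 were lower, median 0.15), though 10 rose and 8 fell under equal medians. Rpl22 rose from 421 ± 16.8 to 621 ± 40.1 (SD, n = 5), Rps29 from 2835 ± 163 to 3964 ± 161 (SD, n = 5) and Rpsa from 927 ± 42.1 to 1299 ± 110 (SD, n = 5). Neither further Rpsa probeset was called (-0.03 and 0.29).

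Chaperone genes included large falls beside rises, and their balance turned with the scaling (10 of 36 measured genes were higher and 6 were lower as deposited, 10 higher and 3 lower after quantile normalization and 4 higher and 12 lower under equal medians). Hspa4, a co-chaperone of HSP70, fell from 467 ± 46.6 to 189 ± 23.3 (SD, n = 5) and its relative Hsph1 fell from 1593 ± 118 to 1054 ± 62.9 (SD, n = 5), while Hspa2 rose from 444 ± 37.3 to 682 ± 57.6 (SD, n = 5). Atf4, a transcription factor of the integrated stress response, had 399.8, 383, 403, 393 and 397 against 591, 596, 630.2, 618 and 631 (log2 fold change -0.61, standard error 0.05, limma adjusted p = 3.12e-07, no overlap). On the unfolded protein response list, 8 of 37 measured genes were higher and 6 were lower, against 4 higher and 8 lower under equal medians. Of 23 glycolysis genes 4 rose and 6 fell (0 higher and 10 lower under equal medians), the latter with Tpi1 (-0.48). The neuronal glucose transporter gene Slc2a3 fell by 0.91 at its brightest probeset and rose by 0.74 at a dim one (limma adjusted p = 0.0203). Splicing genes had 6 rises and 10 falls among 43 (2 higher and 17 lower under equal medians). Lysosomal genes had 9 and 4 among 42, a balance that turned to 4 higher and 7 lower under equal medians. Proliferation genes had 4 and 0 among 36 (1 higher and 1 lower under equal medians).

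Several of the largest changes belonged to no list. Tnfrsf21, death receptor 6, had 114, 104, 96.5, 95.4 and 122 against 365, 372, 391, 422 and 366 (log2 fold change -1.71, standard error 0.08, limma adjusted p = 2.12e-10, no overlap), and its other probeset fell by 1.46. C10h5orf15, a gene of uncharacterised role, fell from 744 ± 71.2 to 144 ± 22.6 (SD, n = 5) (log2 fold change -2.25, standard error 0.09, limma adjusted p = 3.15e-11, no overlap), while its other bright probeset was not called (-0.09). Pafah1b1 (LIS1), a partner of the motor dynein, fell from 564 ± 17.7 to 198 ± 37.9 (SD, n = 5), and its other probeset was not called (0.06). Mtpn, myotrophin, fell from 295 ± 29.9 to 105 ± 27.3 (SD, n = 5) and by 0.85 at a further probeset, and the amino acid transporter subunit gene Slc3a1 fell from 198 ± 26.9 to 57.2 ± 16.5 (SD, n = 5). Neurod2 and Gbx2, transcription factors of the developing brain, rose from 34.2 ± 13.7 to 105 ± 17.6 (SD, n = 5) and from 55.6 ± 19.5 to 144 ± 41.8 (SD, n = 5). The RNA-binding protein gene Igf2bp3 rose from 47.2 ± 25.4 to 124 ± 22.5 (SD, n = 5), Rragd, a GTPase of mTORC1 signalling, rose from 76.8 ± 4.97 to 182 ± 38.4 (SD, n = 5), and Ifnk, an interferon, rose from 210.1 ± 48.7 to 509 ± 99.6 (SD, n = 5).

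Sham surgery was the measure of the operation without a ligature. The side difference in SNL L4 departed from that in sham L4 in 14% of probesets by the limma interaction test, with 1777 more positive (5.72%) and 2570 more negative (8.28%). By genes the shares were 8.94% and 7.75%. Array quality departed as well, the GAPDH ratio by 0.95 between the sides in SNL and by 0.43 in sham. Among matrix genes 28 of 48 were more positive than in sham and none was more negative, and the sham median was -0.18. Col6a1 rose by 0.83 in SNL L4 and had -0.52 in sham L4, a difference of 1.35 (standard error 0.11, limma adjusted p = 9.76e-10). The differences were 1.53 for Ccn2 and 1.44 for Col1a1. For both, the sham means, ipsilateral then contralateral, lay between the SNL sides, with 150 and 214 for Ccn2 (SNL 245 and 108). For Col1a1 they were 1004 and 1181 (SNL 1724 and 728). Pdgfrb and Col8a1 did not share this, since Pdgfrb had 1.59 in sham L4, more than in SNL L4 (limma adjusted p = 0.00655), and Col8a1 had 1.03 in sham.

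Several stimulus-response genes were more positive than in sham. The difference was 1.97 for Per1 (limma adjusted p = 0.000112), 1.94 for Depp1 and 1.33 for Zfp36. Outside this group it was 1.47 for the class II gene RT1-Bb and 1.36 for Cdca7, a gene of dividing cells. In sham L4 the sides differed by -0.07 for Per1 and 0.05 for Dusp1. For Per1 the sham L4 means, ipsilateral then contralateral, were 62.4 and 64.2, between the SNL means of 120.7 and 23.99. Those of Depp1 were 39.5 and 55.5 (SNL 93.2 and 22.4), and those of Dusp1 were 601 and 580 (SNL 1212 and 473). For each of these genes the SNL contralateral mean was below both sham means, a difference that was not tested. Of immediate early genes 11 were more positive than in sham and none more negative. The falls of marrow genes also went beyond sham, by -3.13 for S100a8 (limma adjusted p = 1.47e-16), -1.79 for S100a9, -1.99 for RatNP-3b, -1.66 for Defa5 and -1.51 for Np4, and so did those of C10h5orf15 (-2.03), Vamp2 (-1.57), Ugt8 (-1.44) and P2rx3 (-1.10). Sham L4 means, ipsilateral then contralateral, were 52.7 and 64.7 for S100a9, 14.9 and 18.2 for Defa5 and 26.7 and 17.8 for RatNP-3b. The SNL contralateral means (238, 99.6 and 160) were far above these, and the SNL ipsilateral means (49.1, 18.3 and 39.7) were nearer to them. For S100a8 the sham means (141 and 189) lay between SNL contralateral (563) and ipsilateral (34.7). These levels were not tested between SNL and sham.

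Some peptide and cytoskeleton genes also changed in sham rats. Vip had 1.09 in sham L4 and 1.09 in SNL L4, a difference of 0.00 (standard error 0.21, limma adjusted p = 0.9996). Npy was the higher in sham (1.71) than in SNL (1.23, limma adjusted p of the difference = 0.0196). Tubb2b, Prph and Stmn4 had sham differences of 0.62, 0.46 and 0.71. The brightest Calca probeset, and outside these groups Kcna1, Elavl4 and Neurod2, had 0.56, -0.60, -0.36 and 0.90 in sham L4. For these 4 the departure of SNL from sham was not called (limma adjusted p = 0.439, 0.417, 0.615 and 0.298). Sox11 and Gal went beyond sham. Sox11 rose by 0.98 against 0.20 in sham (difference 0.78, limma adjusted p = 0.00255) and Gal by 0.65 against -0.03 (limma adjusted p = 0.0243). For Atf3 the values were 1.0 and 0.39, and the difference missed the threshold (limma adjusted p = 0.0831). The neurofilament side differences were larger in sham L4, with 0.75 for Nefl and 0.69 for Nefm (limma adjusted p = 2.01e-05 and 0.00295). Of cytoskeleton genes 15 of 34, and of pan-neuronal genes 11 of 18, were more negative in SNL than in sham, and none was more positive. Both counts are as deposited and were not repeated under the other scalings. Over all probesets the split between 1777 positive and 2570 negative turned to 2642 and 1899 under equal medians.

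**Figure D4:**
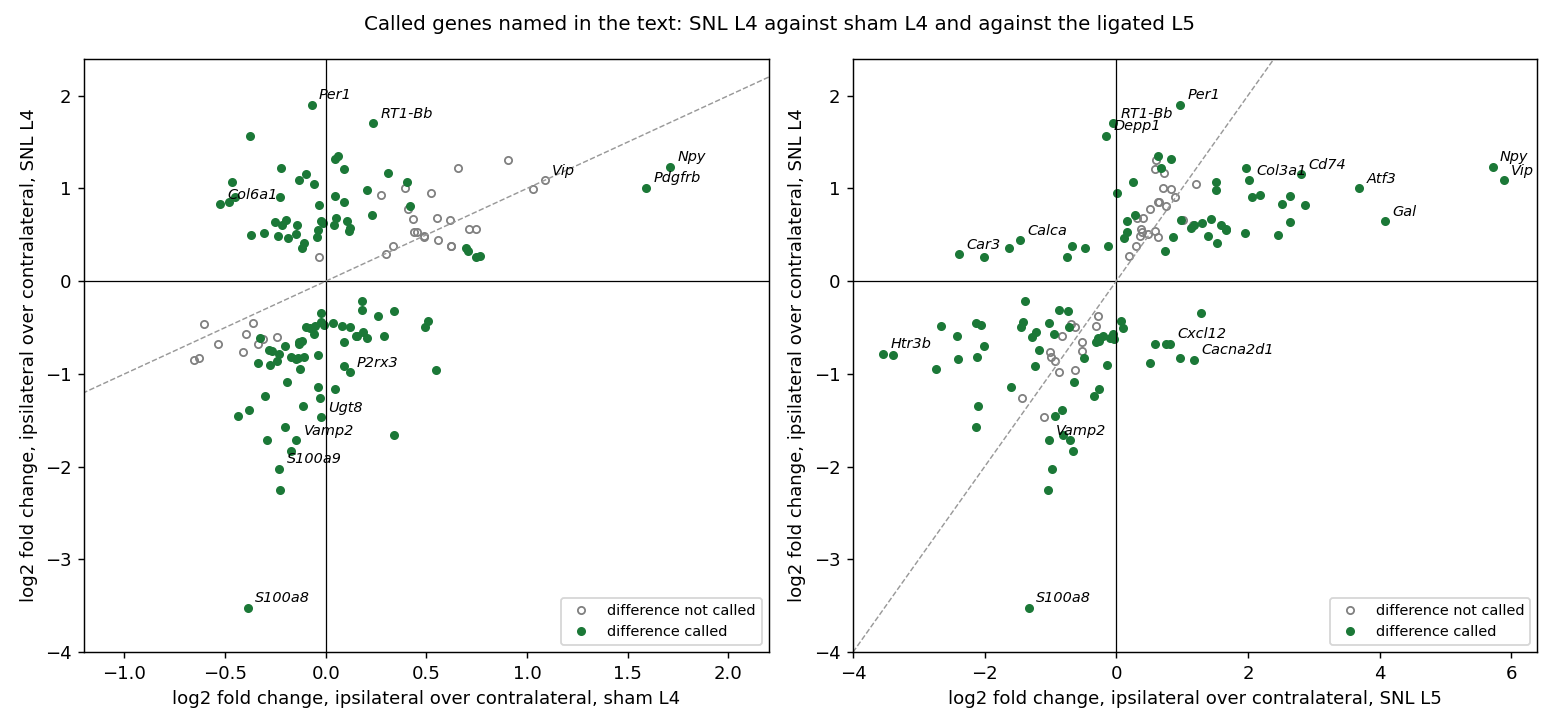
Log2 fold change between the sides in SNL L4 (vertical axis) against that in sham L4 (left) and in the ligated L5 of the SNL rats (right) for the called genes named in the text. Filled points are genes whose difference between the comparisons was called by limma, open points the others, and the dashed line marks equal values. S100a8 lies lowest in both panels, and Npy and Vip lie far to the right at L5.

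Against the ligated L5 of the same rats, the side difference departed in 19.2% of probesets, and in 15.1% of genes it was more positive and in 10.3% more negative at L5. The injury genes had far larger side differences at L5. The L5 log2 fold change was 5.88 for Vip, 5.72 for Npy, 4.08 for Gal and 3.69 for Atf3, and exceeded that at L4 by 4.80, 4.48, 3.43 and 2.69. Sprr1a, not called at L4, exceeded its L4 value by 2.71 at L5 (limma adjusted p = 6.1e-10), whereas Sox11 was closer (1.51 at L5, difference 0.53). Of regeneration genes 24 of 41, and of matrix genes 39 of 48, were more positive at L5. The L5 arrays belong to another array series in the labels, and each side comparison stays within 1 series.

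Side differences of a few genes were called in both ganglia with opposite signs. Cacna2d1, the calcium channel subunit that gabapentin binds, had 68.02, 80.4, 88.4, 63.7 and 66.8 on the ipsilateral and 145, 136, 157, 137 and 147 on the contralateral L4 arrays. It fell by 0.85 there and rose by 1.18 at L5, a difference of 2.03 (standard error 0.10, limma adjusted p = 3.32e-14), and in sham L4 it had -0.65. Cxcl12, a chemokine, had -0.67 at L4 and 0.82 at L5 (difference 1.49). The same pattern held for Plac8 (difference 1.80), Cbln2, a synapse organiser (1.62), Pter (1.43) and Gpr137b (1.39), although the next Gpr137b probeset was not called at L4 (0.19). In the other direction the brightest Calca probeset rose by 0.44 at L4 and had -1.46 at L5 (difference -1.90), but its next probeset fell at L4 too (-0.76), so the opposite signs hold for 1 probeset. RT1-Bb and Depp1 rose at L4 and were not called at L5 (-0.05 and -0.16, limma adjusted p = 0.811 and 0.257), with differences of -1.75 and -1.72. Car3, a carbonic anhydrase of muscle and fat, Kcnip3, a calcium-binding partner of potassium channels, and Rprm, a cell cycle gene, differed by -2.67, -2.26 and -1.99, with small L4 rises of 0.29, 0.26 and 0.36. The L4 calls of Car3 and Kcnip3 were lost without any 1 of 8 and of 9 of the 10 arrays, and that of Rprm under equal medians. Muscle markers moved with these differences. At L5 the skeletal muscle list had a median of -2.87, and 23 of 25 members were more negative than at L4 and 1 was more positive. The summed signal of the list was 2017 to 2221 on the ipsilateral and 9850 to 10717 on the contralateral L5 arrays, and its part in the differences between L5 and L4 was not tested.

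Marrow genes fell at both levels, but less at L5. S100a8 had a log2 fold change of -1.33 at L5 (difference 2.19, limma adjusted p = 1.84e-15) and S100a9 -0.97. Among nociceptor genes P2rx3 had -0.88 at L5, a difference from L4 of 0.10 (standard error 0.07) that missed the threshold (limma adjusted p = 0.36). Scn11a was -3.05 at L5 and Htr3b -3.54, both below L4 by the test of the difference (limma adjusted p = 3.49e-19 and 1.15e-14). Egr2 had 1.21 at L5 (limma adjusted p of the difference = 0.158), and Cd74 2.80, more than at L4 (limma adjusted p = 2.66e-15). Cnp fell at L4 and had 0.60 at L5 (limma adjusted p of the difference = 6.73e-12).

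Among genes above the median signal, the spread between the ipsilateral ganglia was greatest in 6. Pigu had 14.3, 151, 144, 99.6 and 91.7 on the ipsilateral arrays of rats 4, 8, 9, 18 and 48, Ogfod1 7.31, 76.8, 107, 65.3 and 72.6 and Syt5 8.69, 80.3, 70.1, 77.9 and 68.9. Rat 4 was the lowest array of all 3. Dnlz had 50.7, 98.2, 112, 52.7 and 11.1, Sytl3 63.5, 83.03, 14.3, 119.8 and 89.8 and Meox1 182, 26.3, 109, 98.2 and 71.1, where rats 48, 9 and 8 were lowest. The SDs of the ipsilateral log2 signals of these 6 genes were 0.82 to 1.0, against 0.20 to 0.35 on the contralateral side, and they were chosen for that spread.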

How the data were processed

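Each of the 40 deposited tables holds the MAS 5 signal of every probeset of 1 Affymetrix Rat230_2 array, hybridised with biotin-labelled total RNA of 1 ganglion. The authors computed these linear intensity values with the MAS 5 algorithm, which scales each array to a common trimmed mean. The sources used here do not give the MAS 5 release. Such scaling fixes the trimmed mean but not the median, which differed between the sides.

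Groups and rat numbers came from the labels. The 57 control probesets were left out, and log2(signal + 16) of the other 31042 entered limma's linear model (lmFit, then eBayes with trend, limma 3.58.1 in R 4.3.3). The fit for SNL L4 used its 10 arrays, and differences between side effects were interaction contrasts over 20 arrays. P-values were adjusted by Benjamini-Hochberg over all probesets, and calls were made where that value was under 0.05. The number of arrays limits the precision.

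Platform annotation gave 1 gene symbol to 20826 probesets, several to 436 and none to 9780. Each of 14217 genes was read from its brightest probeset (mean signal of all 40 arrays). Fold changes are on the log2(signal + 16) scale, which understates the change of dim genes.

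The genes named are, by rule, the 15 largest rises and falls that were bright, did not overlap and held under each scaling and without any 1 array. To these were added up to 4 called members with the largest change and the 2 brightest of each list. The 8 largest differences from sham in each direction and the 6 largest differences from L5 with opposite signs in each direction followed. Last came the 6 genes above the median signal with the largest ipsilateral spread, and Atf3, Npy, Gal, Vip, Sox11 and Sprr1a. Not all of them are printed. Ier2 was named after its values were seen, through its promoter. The members, gene lists and tests were chosen with earlier results of these data known.

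The sides share rats, so the rat number pairs the arrays. Deviations from the group mean, compared between the 2 arrays of each rat, had correlations of -0.0104 to 0.0399 over probesets. Alternatives were other offsets, quantile normalization, equal medians, leaving out dim probesets, eBayes without trend, a stricter threshold, the rat as a block, all 8 groups in 1 fit, the mean over the probesets of a gene, the methods' t-test, and leaving out each array. The scripts were tested on simulated data.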

Additional observations from a re-analysis of the deposited data

Results flagged for a closer look

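Within the 5 arrays of a side, an array was looked for whose gap to its nearest neighbour took up most of the range of the group. The share of the range was above the limit of 0.71 in 19 of 312 groups (6.09%). The genes checked were chosen by their values in these arrays, 6 of them for their ipsilateral spread. The count of groups past the limit therefore cannot be set beside a chance rate. For the lowest ipsilateral array this share was 0.802 for Calca in rat 48, 0.737 for Igfbp6 in rat 18, 0.723 for RT1-Db1 in rat 48, 0.757 for B2m in rat 48, 0.775 for Col8a1 in rat 18, 0.742 for Pigu in rat 4, 0.751 for Ogfod1 in rat 4 and 0.907 for Syt5 in rat 4. For the highest ipsilateral array this share was 0.761 for Vgf in rat 9 and 0.718 for Ugt8 in rat 48. For the lowest contralateral array this share was 0.855 for Calca in rat 18, 0.722 for C1qb in rat 8, 0.879 for Psmb7 in rat 18 and 0.868 for Meox1 in rat 18. For the highest contralateral array this share was 0.719 for Sgk1 in rat 9, 0.716 for Timp3 in rat 9, 0.835 for S100a8 in rat 9 and 0.744 for Gpr137b in rat 48. The actin ratio of the contralateral array of rat 18 was the highest of its side (0.755). The gaps fell in every rat, and no array was apart across genes.

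The side difference of SNL L4 departed from that of sham L4 by limma's interaction test in genes of the named set. On the log2 scale the departure was 1.97 for Per1, 1.47 for RT1-Bb, 1.94 for Depp1, -0.48 for Npy, 1.44 for Col1a1, 1.53 for Ccn2, -3.13 for S100a8, -2.03 for C10h5orf15, -1.79 for S100a9, -1.66 for Defa5, -1.57 for Vamp2, -1.99 for RatNP-3b, -1.44 for Ugt8, 0.67 for Gal, 0.78 for Sox11, 1.36 for Cdca7, 1.35 for Col6a1, 1.33 for Zfp36 and -1.51 for Np4. The side difference of L5 departed from that of L4 by -1.75 for RT1-Bb, -1.72 for Depp1, 4.48 for Npy, 3.43 for Gal, -1.90 for Calca, 2.03 for Cacna2d1, 4.80 for Vip, 2.69 for Atf3, 0.53 for Sox11, 1.49 for Cxcl12, -2.67 for Car3, 1.80 for Plac8, 1.62 for Cbln2, 1.43 for Pter, 1.39 for Gpr137b, -2.26 for Kcnip3, -1.99 for Rprm and 2.71 for Sprr1a. The GAPDH ratio differed between the sides in both L4 groups, and its part in these differences was not tested.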

How the results depend on the processing

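In SNL L4 the 3140 rises and 2798 falls became 1586 and 4182 under equal medians, and the rises moved below the falls. One fit of all 8 groups called 10507 probesets (6148 higher, 4359 lower), a threshold of 0.01 called 3559 (1640 higher), and the methods' t-test called 2510 at its unadjusted threshold of 0.001 (1094 higher, 1416 lower) and 2486 and 2367 after Benjamini-Hochberg adjustment. With the rat as a block, which follows the pairing of sides, 2949 were higher and 2723 lower. Leaving out 1 array gave 4901 to 5743 calls (2509 to 2992 higher, 2392 to 2754 lower). For the difference from sham, a threshold of 0.01 called 2451 (906 positive, 1545 negative), equal medians turned the split to 2642 positive and 1899 negative, and leaving out 1 array gave 3631 to 4485 (1452 to 1863 positive, 2179 to 2622 negative). For L5 against L4, a threshold of 0.01 called 3825 (2212 positive, 1613 negative), equal medians gave 2782 positive and 3117 negative, and leaving out 1 array gave 5382 to 6021 (3109 to 3505 positive, 2239 to 2530 negative). The side difference of the GAPDH log2 ratio stayed between 0.92 and 1.001 without any 1 array, that of actin between 0.638 and 0.941, of the median signal between 4.66 and 5.38 and of the bacterial controls between 0.455 and 0.572.

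Of 141 called genes of the text, the calls of 4 were lost without some 1 array (C1qa, C1qb, Car3 and Kcnip3), 9 after quantile normalization, 9 under equal medians, 17 with the mean over probesets, 7 at a threshold of 0.01, 5 without the intensity trend, 3 by the t-test and 2 with the rat block (Car3 and Kcnip3). None was lost with either other offset or in the fit of all 8 groups, nor among the 135 that passed the filter on dim probesets. The direction turned for Nefl (-0.32), Scd2 (-0.0392), Pmp22 (-0.000896) and the uncalled Scn11a (0.0783) after quantile normalization, and for Scn11a also without the ipsilateral array of rat 8 (0.000589, against down to -0.0594 without that of rat 4). It turned for the uncalled Gap43 under equal medians (-0.00683), and with the mean over probesets for Calca (-0.0646), Nefl (-0.13), Jund (-0.0242) and Scd2 (-0.63). The cause was not tested.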
